A study of Mus musculus with 12 samples.

Results

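The myelin genes of Schwann cells were followed in dorsal root ganglia (DRG), the clusters of sensory neurons beside the spinal cord in which Nf2 mice form schwannomas. The set comprised 8 genes chosen by name, Mbp, Pmp22, Pmp2, Prx, Mag, Gjb1, Cldn19 and Egr2, out of 49315 genes in the count table, and all 8 passed the filter on low counts that kept 18295 genes for testing. DRG were taken at 10 months of age from 6 Nf2 mice and from 6 DKO (double knockout) mice. Both were homozygous for a floxed Nf2 allele and carried the Postn-Cre transgene, and DKO mice were also homozygous for a floxed Fak allele. Fak is annotated as Ptk2. Each genotype comprised 3 mice labelled female and 3 labelled male, and each library pooled about 8 DRG of 1 mouse. Postn-Cre, which both genotypes carried, removes the floxed alleles in Schwann cells and their precursors, while the libraries also hold RNA of the neurons, immune cells and other cells of the ganglia. Mice with intact Nf2 and mice lacking Fak alone were not analysed here, so every value below sets DKO DRG against Nf2 DRG and none sets either against normal tissue.

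Myelinating Schwann cells wrap a segment of an axon in many layers of their own membrane. Most of this sheath is compact myelin, in which the membranes are pressed together by adhesive and basic proteins, while the paranodes, the incisures and the inner and outer margins keep cytoplasm and are held by junctions and scaffolds. Sox10 and Egr2 are the transcription factors that switch these genes on during differentiation, and Schwann cells that lose axon contact or turn into tumor cells are known to lower them. Mbp and Mag are also made by oligodendrocytes, the myelinating cells of the spinal cord.

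Promoter sequence is shown for 1 start each of the pair of members that varied together most closely, Gjb1 and Cldn19, and of Pmp22. Levels of Pmp22 overlapped between genotypes, as did those of Cldn19, Egr2 and Mag. Each stretch is the 250 bases before a transcript start, written 5′ to 3′ on the gene's strand, from RefSeq on GRCm38.p6. Capitals mark GTGGGCG, letters of the kind bound by Egr proteins, and ACAAAG, letters of the kind bound by Sox proteins, both searched on both strands.
Gjb1, chrX:101383482-101383731, plus strand: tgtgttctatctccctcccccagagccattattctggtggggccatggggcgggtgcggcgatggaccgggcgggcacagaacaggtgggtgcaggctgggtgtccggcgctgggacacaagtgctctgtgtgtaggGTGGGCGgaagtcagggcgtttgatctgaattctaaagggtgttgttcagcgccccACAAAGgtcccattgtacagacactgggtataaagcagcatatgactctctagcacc
Cldn19, chr4:119255191-119255440, plus strand: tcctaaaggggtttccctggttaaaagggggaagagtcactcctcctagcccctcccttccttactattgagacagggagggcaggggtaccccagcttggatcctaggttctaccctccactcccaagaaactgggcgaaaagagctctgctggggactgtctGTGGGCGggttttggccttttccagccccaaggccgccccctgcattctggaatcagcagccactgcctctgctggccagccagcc
Pmp22, chr11:63128732-63128981, plus strand: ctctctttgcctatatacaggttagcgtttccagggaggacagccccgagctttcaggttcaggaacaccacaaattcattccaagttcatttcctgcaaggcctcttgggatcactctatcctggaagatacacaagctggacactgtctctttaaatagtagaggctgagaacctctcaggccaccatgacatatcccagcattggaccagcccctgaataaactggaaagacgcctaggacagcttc
The Gjb1 stretch held GTGGGCG at bases 138 to 144 and ACAAAG at bases 194 to 199, counted from its 5′ end. The Cldn19 stretch held GTGGGCG at bases 165 to 171, and the Pmp22 stretch held neither. The table gave 19 starts for 6 of the 8 members, with none for Mbp or Pmp2. There were 4 starts for Gjb1, 2 for Cldn19 and 4 for Pmp22. The Gjb1 start shown was the only 1 of its 4 with both sets of letters, another held ACAAAG alone and the rest held neither. GTGGGCG occurred in 4 of these 19 stretches, belonging to Gjb1, Cldn19 and Egr2, against 7.02% of 32851 stretches of the same length genome-wide. ACAAAG occurred in 4 stretches, belonging to Gjb1 and Mag, against 16.5% genome-wide. The longer forms GCGTGGGCG and AACAAAG, which contain the shorter ones, occurred in none of the 19 stretches, and genome-wide in 0.536% and 5.03%. TATAAA, left in lower case, occurred in the Gjb1 stretch shown and in 12.4% genome-wide. Several starts of 1 gene lie within a few bases of each other, so these stretches are not independent, and a match is only a match of letters. A relation of these letters to the genotype differences was not tested.

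Total counts per mouse ranged from 21129191 to 41250329, and mitochondrial genes took 1.99% to 5.60% of them. The library of mouse 702, an Nf2 mouse labelled male, had 496 CPM (reads of a gene scaled to the library total, per 1000000 reads) of the X-linked transcript Xist and 0.525 CPM of the Y-linked gene Ddx3y, which lay within the range of libraries labelled female. Results by sex are therefore given with and without it. Skeletal muscle markers summed to 53.5 to 1180 CPM in Nf2 libraries and 64.7 to 406 CPM in DKO libraries. Most of the lowest sums came from 1 gene of that list, Pvalb, which had at least 38.9 CPM in Nf2 and 41.2 CPM in DKO libraries. Whole-gene counts did not separate the genotypes by the targeted genes. Ptk2 had 70.0 ± 3.60 CPM in Nf2 and 64.0 ± 10.4 CPM in DKO DRG (mean ± SD, n = 6 each; edgeR adjusted p = 0.529), and Nf2 had 128 ± 12.3 and 118 ± 11.2 CPM (edgeR adjusted p = 0.435). Libraries are individual mice, so the p-values below measure the spread between mice.

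To determine whether the myelin genes differed between DKO and Nf2 DRG, their counts were compared with the edgeR quasi-likelihood test over all 18295 genes. None of the 8 passed an adjusted p of 0.05, a threshold that 0.94% of all genes passed (172 genes, 68 higher and 104 lower in DKO DRG). At an unadjusted p under 0.05, 2 of the 8 passed, Gjb1 and Cldn19, against 14.9% of all genes. The median log2 fold change of the 8 was 0.01, beside 0.00 over all genes, with 4 above and 4 below 0. The 2 genotypes did not overlap for 1 member, Gjb1, against 1.95% of all genes. The compact myelin genes Mbp and Pmp22, the scaffold gene Prx and the adhesion gene Mag had differences of at most 0.13 on the log2 scale. Gjb1 and Cldn19, both of which encode junction proteins, had the highest fold changes of the 8, at 1.36-fold and 1.31-fold. In bulk tissue, fewer myelinating cells and less RNA per cell cannot be told apart.

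**Figure D1:**
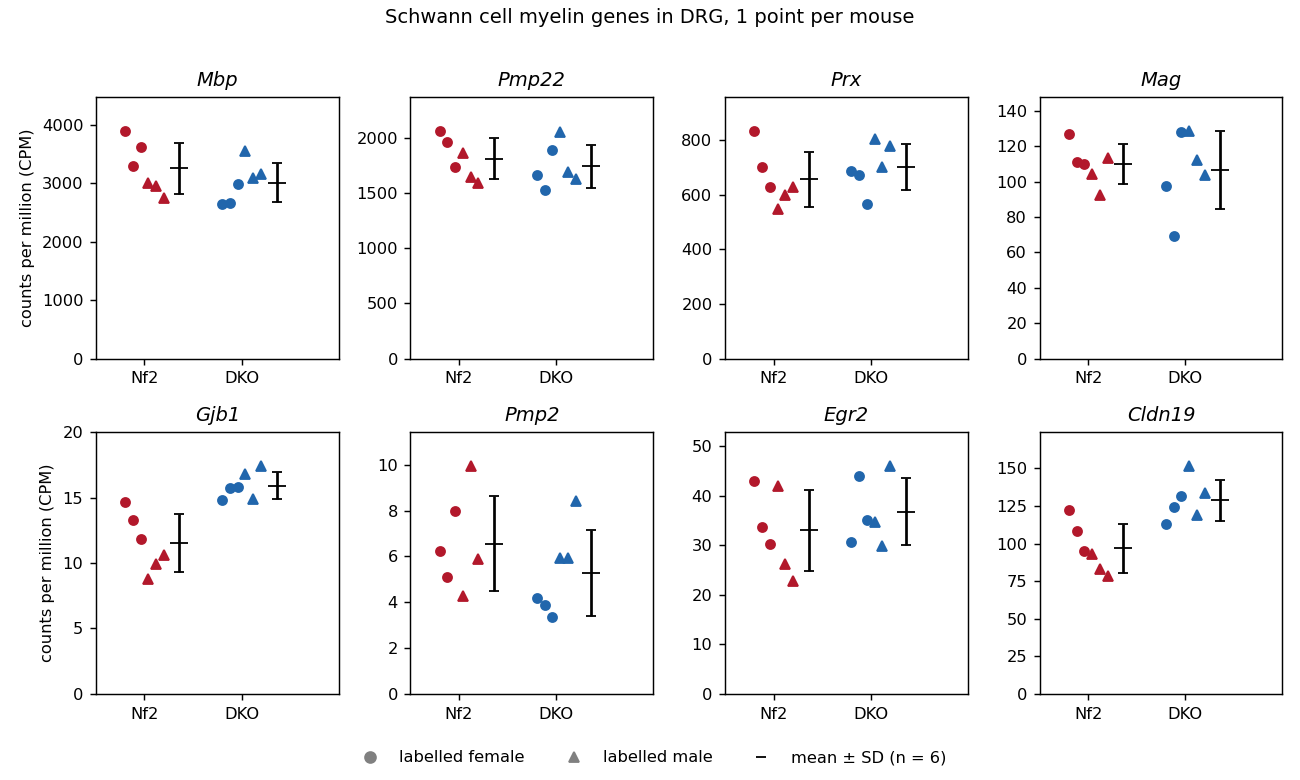
CPM of the 8 myelin genes in each mouse, with Nf2 and DKO on the x axis, circles for mice labelled female, triangles for mice labelled male, and bars for the mean ± SD of 6 mice. The 6 DKO values of Gjb1 lie above all 6 Nf2 values, from 14.8 against at most 14.7 CPM, and in the other 7 panels the genotypes overlap.

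The compact myelin genes were examined first. Mbp (ENSMUSG00000041607, GRCm38 chromosome 18, 82475146 to 82585637) encodes myelin basic protein, which seals the cytoplasmic faces of compact myelin. In Nf2 mice it ranged from 2741 to 3899 CPM with a median of 3154 CPM, and in DKO mice from 2651 to 3545 CPM with a median of 3037 CPM. The highest value was in an Nf2 mouse labelled female (918), the 2 lowest were in DKO mice labelled female (885 and 886), and 4 of the 6 DKO values lay inside the Nf2 range. The means were 3256 ± 440 and 3013 ± 337 CPM (SD, n = 6 each), and the log2 fold change was -0.13 ± 0.10 (SE; 95% interval -0.35 to 0.09; edgeR adjusted p = 0.620). An increase in DKO DRG of more than 1.07-fold and a fall to less than 0.782 of the Nf2 level lay outside the interval.

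Pmp22 (ENSMUSG00000018217, chromosome 11, 63128982 to 63159547) encodes a membrane protein of compact peripheral myelin, and an extra copy of the human gene causes a form of Charcot-Marie-Tooth neuropathy. It ranged from 1594 to 2063 CPM in Nf2 mice, median 1797, and from 1527 to 2053 CPM in DKO mice, median 1677. The ranges were nearly the same. Its log2 fold change was -0.07 ± 0.09 (95% interval -0.28 to 0.13; edgeR adjusted p = 0.776), the narrowest interval of the 8 genes, with a variation between mice of 11.8% beyond counting error.

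Pmp2 (ENSMUSG00000052468, chromosome 3, 10179851 to 10183929), the fatty acid-binding P2 protein of peripheral myelin, was the lowest and most variable of the 8, with a variation between mice of 29.5%. In Nf2 mice it had 6.22 (918), 5.10 (1048), 8.00 (1049), 4.26 (649), 9.94 (702) and 5.88 (884) CPM. In DKO mice it had 4.17 (885), 3.87 (886), 3.36 (887), 5.92 (914), 5.93 (915) and 8.42 (917) CPM. The 3 lowest values were those of the DKO mice labelled female, and the DKO mice labelled male lay inside the Nf2 range. The log2 fold change was -0.34 ± 0.24 (95% interval -0.86 to 0.18; edgeR adjusted p = 0.568), so that neither no difference nor a fall to 0.55 of the Nf2 level lay outside the interval. Its exons overlap those of Gm37389 on the same strand, and reads of the 2 genes may be split between them.

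Prx (ENSMUSG00000053198, chromosome 7, 27499324 to 27520214) encodes periaxin, the scaffold that ties the outer Schwann cell membrane to the basal lamina receptors. It ranged from 547 to 834 CPM in Nf2 mice, median 628, and from 567 to 805 CPM in DKO mice, median 694. The highest and the lowest of the 12 values both came from Nf2 mice. The log2 fold change was 0.08 ± 0.10 (95% interval -0.15 to 0.30; edgeR adjusted p = 0.782).

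Mag (ENSMUSG00000036634, chromosome 7, 30899176 to 30914873) encodes myelin-associated glycoprotein, the adhesion molecule of the innermost membrane facing the axon. It ranged from 92.7 to 127 CPM in Nf2 mice, median 111, and from 69.3 to 129 CPM in DKO mice, median 108. A single DKO mouse, 886, held the lowest value, and the other 5 lay from 97.5 CPM upward. The log2 fold change was -0.06 ± 0.13 (95% interval -0.34 to 0.22; edgeR adjusted p = 0.873).

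Egr2 (ENSMUSG00000037868, chromosome 10, 67535475 to 67542188) encodes the zinc finger transcription factor required for Schwann cells to start and keep up myelination. It ranged from 22.9 to 43.0 CPM in Nf2 mice, median 32.0, and from 30.0 to 46.0 CPM in DKO mice, median 34.9. The 2 lowest values were those of Nf2 mice 884 and 702, and the ranges otherwise overlapped. The log2 fold change was 0.14 ± 0.17 (95% interval -0.22 to 0.49; edgeR adjusted p = 0.758), with a variation between mice of 20.6%.

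The junction genes gave the highest fold changes. Gjb1 (ENSMUSG00000047797, chromosome X, 101376378 to 101385629) encodes the connexin of the gap junctions that connect the layers of the sheath at paranodes and incisures, and its loss of function in humans causes the X-linked form of Charcot-Marie-Tooth neuropathy. Among Nf2 mice it had 14.7 (918), 13.3 (1048), 11.8 (1049), 8.77 (649), 9.94 (702) and 10.6 (884) CPM. Among DKO mice it had 14.8 (885), 15.8 (886), 15.8 (887), 16.8 (914), 14.9 (915) and 17.4 (917) CPM. All 6 DKO values lay above all 6 Nf2 values, with the Nf2 mouse 918 and the DKO mouse 885 closest to each other. The means were 11.5 ± 2.19 and 15.9 ± 1.03 CPM, from 206 to 693 reads per library. The log2 fold change was 0.45 ± 0.11 (95% interval 0.20 to 0.69), with an unadjusted p of 0.0015 and an edgeR adjusted p of 0.0834.

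Cldn19 (ENSMUSG00000066058, chromosome 4, 119255414 to 119262438) encodes the claudin of the tight junctions that Schwann cells form with themselves at the margins and incisures of the sheath. Among Nf2 mice it had 123 (918), 108 (1048), 95.1 (1049), 93.3 (649), 83.3 (702) and 78.4 (884) CPM. Among DKO mice it had 113 (885), 124 (886), 132 (887), 152 (914), 119 (915) and 134 (917) CPM. The Nf2 mouse 918 exceeded 2 of the DKO mice, 4 of the 6 DKO mice lay above all Nf2 mice, and all 6 lay above the Nf2 mean. The means were 96.8 ± 16.3 and 129 ± 13.6 CPM, and the log2 fold change was 0.39 ± 0.11 (95% interval 0.17 to 0.62), with an unadjusted p of 0.0024 and an edgeR adjusted p of 0.101. The exons of Cldn19 and Prx overlap those of Gm12927 and Gm15541 on the opposite strand, and whether counting used strand is not given in the sources used here.

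Whether Gjb1 and Cldn19 passed the threshold depended on the method and on 1 mouse. DESeq2, which called 4.54% of all genes, called both (adjusted p = 0.0096 for Gjb1 and 0.021 for Cldn19). limma voom with sample quality weights, which called 2.85% of all genes, called Gjb1 (adjusted p = 0.034) and not Cldn19 (adjusted p = 0.0594). Without the Nf2 mouse 918, edgeR called both, at a log2 fold change of 0.53 with an adjusted p of 0.0439 for Gjb1 and of 0.48 with an adjusted p of 0.0469 for Cldn19, in a fit that called 0.438% of all genes. Leaving out any other mouse called neither, with log2 fold changes of at least 0.38 for Gjb1 and 0.34 for Cldn19. In each of these fits both genes were higher in DKO DRG. Mouse 918 was the highest Nf2 mouse for Mbp, Pmp22, Prx, Mag, Gjb1, Egr2 and Cldn19, and it also had the highest summed level of skeletal muscle markers, 1180 CPM. The part of that muscle signal in the result was not tested.

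**Figure D2:**
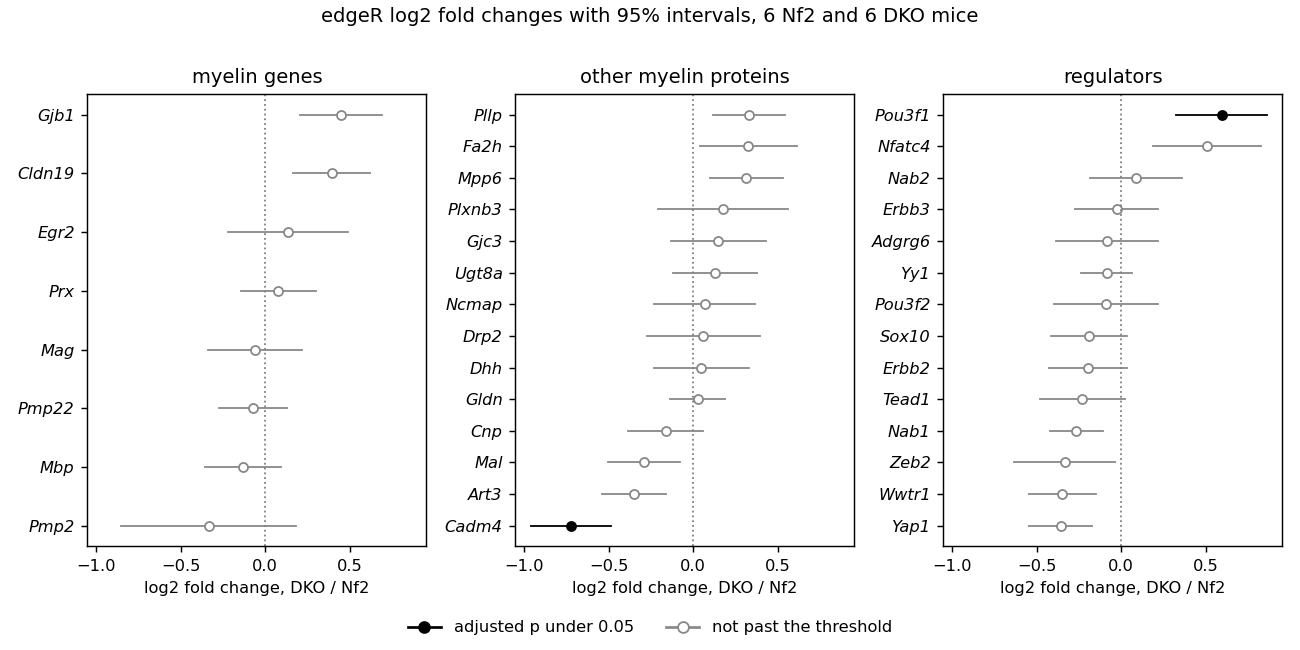
Log2 fold changes of DKO against Nf2 DRG with 95% intervals from edgeR (x axis) for the 8 myelin genes, for 14 of the 16 other myelin proteins and for 14 regulators of Schwann cell myelination (y axis, by size), with filled points for an adjusted p under 0.05. The 8 myelin genes run from -0.34 for Pmp2 to 0.45 for Gjb1 with no filled point, and the filled points are Cadm4 at -0.73 and Pou3f1 at 0.59.

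To set the members against each other within a library, each gene was also expressed per 1000 reads of Mbp in the same library, a measure chosen after the values had been seen and given as a description. Gjb1 had 2.92 to 4.02 reads per 1000 Mbp reads in Nf2 mice, against 4.74 to 5.93 in DKO mice. Cldn19 had 26.2 to 32.7 in Nf2 mice, against 38.4 to 46.8 in DKO mice. For both genes the genotypes were separated by a gap, and the spread within a genotype was small, with 29.7 ± 2.44 against 42.9 ± 2.73 for Cldn19 and 3.53 ± 0.42 against 5.32 ± 0.46 for Gjb1. Of all genes tested, 0.847% did not overlap on this scale. The other 5 genes did overlap, for example Pmp22 with 478 to 619 in Nf2 and 515 to 635 in DKO mice. Against Pmp22 as the denominator, Gjb1 (4.72 to 7.11 and 8.18 to 10.7 per 1000 reads) and Cldn19 (49.2 to 59.4 and 67.8 to 82.4) were again separated. Against Prx, Gjb1 was separated (16.0 to 18.9 and 20.9 to 27.9) and Cldn19 overlapped (125 to 170.5 and 165 to 232).

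**Figure D3:**
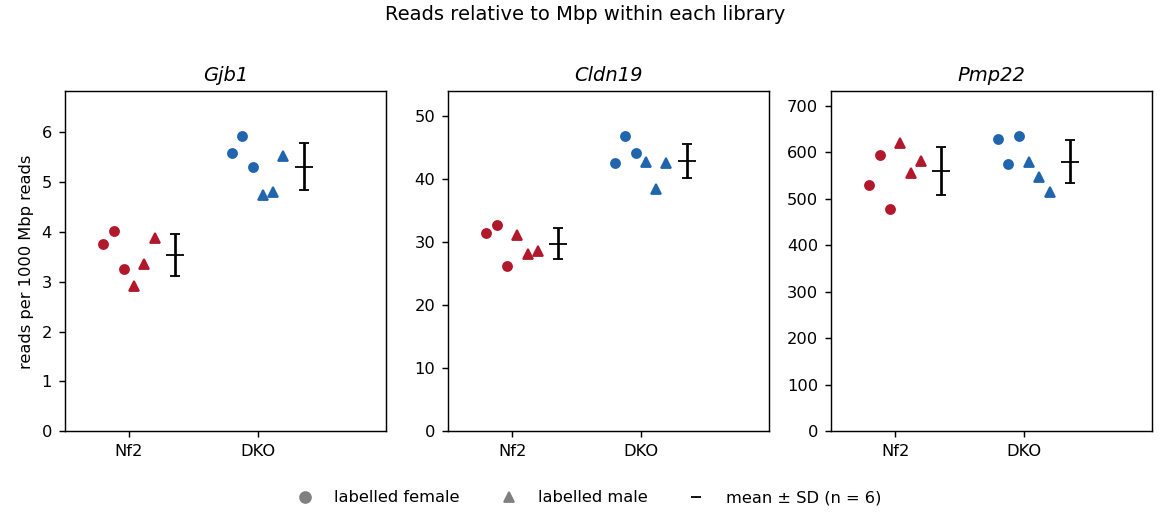
Reads of Gjb1, Cldn19 and Pmp22 per 1000 Mbp reads of the same library (y axis) in Nf2 and DKO mice, with circles for mice labelled female, triangles for mice labelled male, and bars for the mean ± SD of 6 mice. The DKO mice sit at 4.74 or higher for Gjb1 and 38.4 or higher for Cldn19, above all Nf2 mice, while the Pmp22 values overlap.

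Levels were compared between genes per length, as RPKM (reads scaled to the length of the merged exons and to the library total). The merged length joins the annotated exons of a gene, 8469 bases for Mbp and 2354 for Pmp22, and the order of genes depends on it. Without scaling to length, Mbp was above Pmp22, at 3256 and 1809 CPM in Nf2 DRG. The lengths of the transcripts present were not measured. In Nf2 DRG, Pmp22 had the highest level of the 8 at 768 ± 78.4 RPKM, followed by Mbp at 384 ± 52.0, Prx at 118 ± 17.9, Mag at 27.0 ± 2.77, Cldn19 at 22.7 ± 3.82, Egr2 at 9.71 ± 2.41, Gjb1 at 6.75 ± 1.28 and Pmp2 at 4.66 ± 1.47 RPKM. In DKO DRG the levels were 740 ± 82.4 RPKM for Pmp22, 356 ± 39.8 for Mbp, 126 ± 15.2 for Prx, 26.2 ± 5.44 for Mag, 30.2 ± 3.18 for Cldn19, 10.8 ± 1.99 for Egr2, 9.32 ± 0.605 for Gjb1 and 3.75 ± 1.33 for Pmp2. With the same lengths applied to each mouse, the order of Pmp22, Mbp and Prx held in 12 of 12 mice. The order of Mag and Cldn19 differed between the genotypes, since Mag exceeded Cldn19 in 6 of 6 Nf2 mice and in 1 of 6 DKO mice (887). Gjb1 exceeded Pmp2 in 11 of 12 mice.

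The members varied together to different degrees from mouse to mouse. Over the 12 mice, Pearson's r of log2 levels had a median of 0.26 across the 28 pairs of members and was negative for 5 pairs, and each pair shares its libraries, their depth and their tissue composition. As deviations from the genotype means, the median r was 0.39, with 11 pairs above 0.5 against 7 over all mice, and 4 pairs were negative. These values are descriptions without a test. The closest pair was Gjb1 and Cldn19 (r = 0.90, Spearman's rho = 0.92, and r = 0.96 without the 2 mice farthest from the median of Gjb1). Within genotypes, as deviations from the genotype mean, their r was 0.75. Mbp varied with Pmp22 (r = 0.74, rho = 0.77, and 0.77 without 2 mice) and Pmp22 with Mag (r = 0.74, rho = 0.66, and 0.64). Mbp and Cldn19 showed little relation over all 12 mice (r = 0.25, rho = 0.25, and 0.37 without 2 mice) but an r of 0.84 and a rho of 0.82 in the deviations, with 0.86 among the 6 Nf2 and 0.82 among the 6 DKO mice. Cldn19 thus followed Mbp within each genotype at a higher level in DKO mice, which is the offset seen per 1000 Mbp reads. Pmp2 followed none of the other 7 closely, with its highest r at 0.40 with Mbp.

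**Figure D4:**
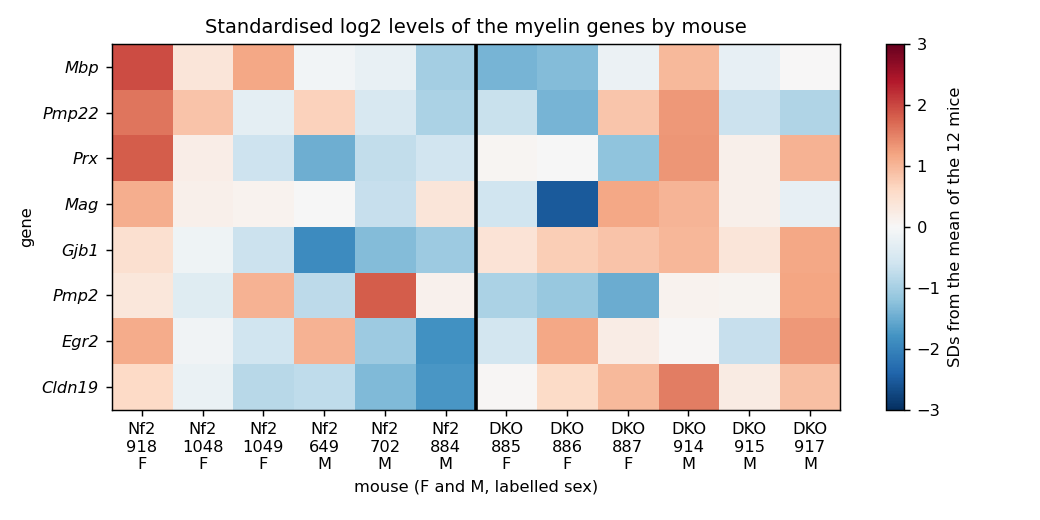
Log2 levels of the 8 myelin genes (y axis) in each of the 12 mice (x axis, Nf2 left and DKO right of the line), standardised to SDs from the mean of the 12 mice, red above and blue below. Mice 918 (Nf2) and 914 (DKO) are above the mean for 8 of 8 genes, mouse 702 is above it for 1 gene, and mouse 886 has its lowest value in Mag at -2.52 SDs.

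Averaged over the 8 standardised genes, mouse 918 had the highest value at 1.12 SDs and the DKO mouse 914 the next at 0.91, while the Nf2 mouse 884 had the lowest at -0.84. Nf2 mice thus held both the highest and the lowest value. Of 14187 other genes with a mean of at least 1 CPM, the 5 that followed this average most closely over the 12 mice were Shc4 (r = 0.90, rho = 0.92), Ugt8a (0.89 and 0.83), Secisbp2l (0.87 and 0.61), Ecscr (0.85 and 0.82) and Slc36a2 (0.83 and 0.89). Shc4 encodes an adaptor protein of receptor tyrosine kinase signaling, and Ugt8a the enzyme that makes the galactolipids of myelin. They were picked as the highest of many, and none of the 5 passed the threshold between genotypes (edgeR adjusted p from 0.287 to 0.985).

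Labelled sex was examined next, since it is the only other factor in the labels. Among DKO mice it ran with mouse number, with females 885, 886 and 887 and males 914, 915 and 917. Among Nf2 mice it ran the other way, with males 649, 702 and 884 and females 918, 1048 and 1049. Within a genotype, labelled sex and any difference between these runs of numbers cannot be told apart. By label, an interaction of genotype with sex also cannot be told apart from a difference between lower and higher mouse numbers. No member passed the threshold between mice labelled male and female across genotypes, and none had an unadjusted p under 0.05. The log2 differences, male minus female, ran from -0.18 for Gjb1 to 0.44 for Pmp2 (edgeR adjusted p = 1.00 for each), in a comparison that called 0.0164% of all genes, and 0.054% without mouse 702. The genotype difference was higher in males than in females for 8 of 8 members, with an interaction of 0.19 for Egr2 to 0.71 for Pmp2 on the log2 scale and a median of 0.45. Over all genes the interaction was positive for 48.2% and its median was -0.01. None of the 8 interactions passed the threshold (edgeR adjusted p from 0.920 to 0.942, with 0.0109% of all genes called), and 4 had an unadjusted p under 0.05, Mbp, Prx, Gjb1 and Cldn19. Without mouse 702 the interactions were again positive for 8 of 8, from 0.10 to 1.12, with adjusted p of 0.772 to 0.943 and 0.0108% of all genes called. The 4 with an unadjusted p under 0.05 were then Mbp, Prx, Gjb1 and Pmp2, and Cldn19 had an unadjusted p of 0.0632 from edgeR. The members share their libraries, so that 8 equal signs are not 8 independent observations.

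Mbp was split by labelled sex in opposite directions. Among females it had 3301 to 3899 CPM in Nf2 and 2651 to 2981 CPM in DKO mice, and among males 2741 to 3007 CPM in Nf2 and 3094 to 3545 CPM in DKO mice. By label, DKO mice were thus lower than all Nf2 mice among females and higher than all Nf2 mice among males. The log2 fold changes were -0.39 ± 0.13 (edgeR adjusted p = 0.489) and 0.12 ± 0.13 (edgeR adjusted p = 0.719). Without mouse 702 that of males was 0.14 ± 0.16 (edgeR adjusted p = 0.714). Mouse 702, whose Xist and Ddx3y were like those of females, had 2958 CPM of Mbp, below the DKO female 887 at 2981 CPM. The separation among females therefore rested on the label of mouse 702. Taken by mouse number over both genotypes, mice 649 to 887 had 2651 to 3007 CPM of Mbp, and mice 914 to 1049 had 3094 to 3899 CPM. By label, the split by sex and a split by mouse number cannot be told apart. The interaction was 0.50 ± 0.17 (unadjusted p = 0.0126, edgeR adjusted p = 0.920), and 0.52 ± 0.19 without mouse 702 (unadjusted p = 0.0187, edgeR adjusted p = 0.772). Without mouse 702 the largest interaction was that of Pmp2, at 1.12 ± 0.33 (unadjusted p = 0.0063, edgeR adjusted p = 0.772). Among females 3 members did not overlap between genotypes, Gjb1 higher and Mbp and Pmp2 lower in DKO mice, where 13.4% of all genes did not overlap. Among males 4 members did not overlap, Mbp, Prx, Gjb1 and Cldn19, each higher in DKO mice, where 19.1% of all genes did not overlap. Gjb1 alone was separated the same way in both sexes. Its genotypes did not overlap over all mice, so separation within each sex had to follow and is not a separate result. The log2 difference of Gjb1 was 0.22 ± 0.13 among females (edgeR adjusted p = 0.749) and 0.70 ± 0.13 among males (edgeR adjusted p = 0.241, and 0.71 ± 0.16 with an adjusted p of 0.540 without mouse 702). No member passed the threshold within either sex, where each side had 3 mice.

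**Figure D5:**
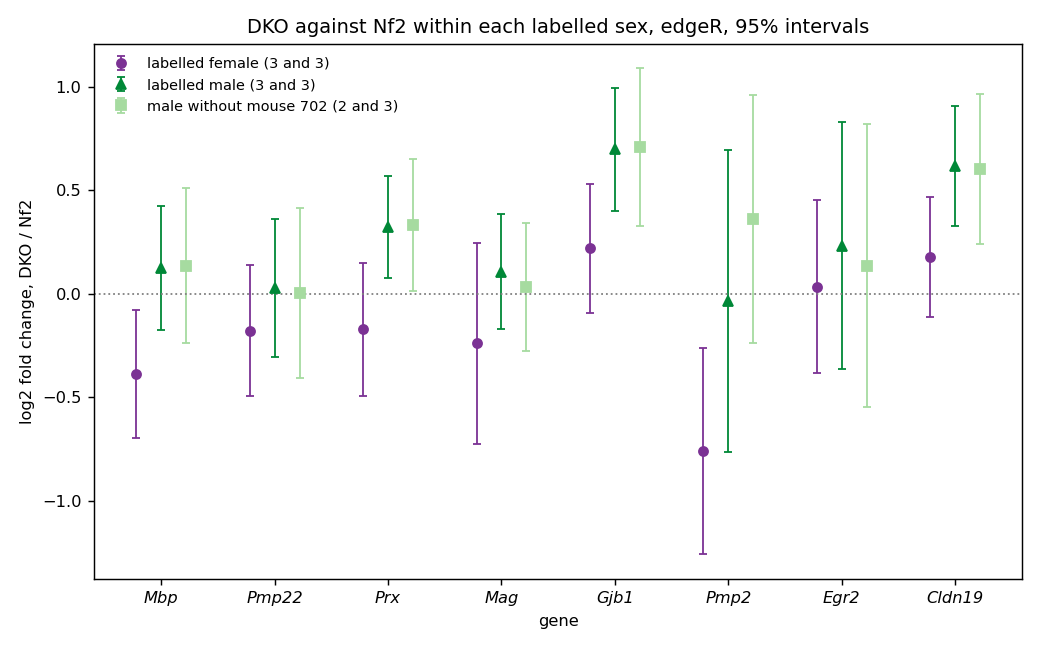
Log2 fold changes of DKO against Nf2 DRG with 95% intervals from edgeR (y axis) for each myelin gene (x axis), fitted in mice labelled female, in mice labelled male, and in the latter without mouse 702. Both sets of points for males lie above those for females for each of the 8 genes, and the female and male intervals overlap for each gene with mouse 702 included, while without mouse 702 those of Pmp2 do not (-1.26 to -0.26 and -0.24 to 0.96).

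Other genes of the same programme were counted from lists of the wider pathway. Of 16 further proteins of peripheral myelin, 1 passed the threshold with edgeR and it was lower in DKO DRG, with a median log2 fold change of 0.06 over the list and 12 of 16 above 0. DESeq2 called 3 and voom 2 of the 16, and 6 had an unadjusted edgeR p under 0.05. That gene was Cadm4, the adhesion molecule by which the inner Schwann cell membrane binds the axon along the internode. It had 1370 to 1611 CPM in Nf2 and 692 to 1129 CPM in DKO mice, with no overlap, and its log2 fold change was -0.73 ± 0.11 (edgeR adjusted p = 0.0084), which also passed without each of the 12 mice.

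Of 14 regulators of Schwann cell myelination, 1 passed the threshold, Pou3f1, the POU factor that acts ahead of Egr2 in promyelinating Schwann cells. It was higher in DKO DRG, at 25.6 to 34.9 CPM against 15.8 to 25.0 CPM in Nf2 mice, and its log2 fold change was 0.59 ± 0.13 (edgeR adjusted p = 0.0419). With edgeR the call was narrow, since it passed in only 1 of the 12 fits that left out a mouse (edgeR adjusted p from 0.0175 to 0.0993). It passed in each of 9 other settings that kept both sexes, among them DESeq2 (adjusted p = 0.0009) and voom (adjusted p = 0.0031). It did not pass in females alone (log2 fold change 0.63, edgeR adjusted p = 0.196) or in males alone (0.55, edgeR adjusted p = 0.468). Males without mouse 702 gave 0.44 (edgeR adjusted p = 0.553). The list had a median of -0.14, with 3 of 14 above 0, and DESeq2 called 5 of the 14. Sox10 had 328 ± 17.1 CPM in Nf2 and 291 ± 52.5 CPM in DKO mice, and its log2 fold change was -0.19 ± 0.10 (edgeR adjusted p = 0.421). Of 12 genes of the node and paranode none passed in the edgeR fit of all mice, 5 had an unadjusted p under 0.05 and DESeq2 and voom each called 2, with a median of 0.19 and 10 of 12 above 0. The smallest p belonged to Nfasc, which encodes the neurofascins of node and paranode (log2 fold change 0.36 ± 0.08, edgeR adjusted p = 0.0603), and to Cntnap2 (0.26 ± 0.08, edgeR adjusted p = 0.135). Nfasc passed with DESeq2 and voom, and with edgeR under upper-quartile factors (adjusted p = 0.0496), under the filter of 1 CPM in 6 mice (0.0447), without mouse 649 (0.0231) and without mice 649 and 887 (0.0160).

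Of 13 genes of immature Schwann cells and negative regulators of myelination, none passed in the edgeR fit of all mice. In that fit 5 had an unadjusted p under 0.05 and the median was -0.04. Gfap, an intermediate filament gene of immature and nonmyelinating Schwann cells and of satellite glia, had 13.7 to 73.3 CPM in Nf2 and 60.1 to 133 CPM in DKO mice (log2 fold change 1.22 ± 0.29, edgeR adjusted p = 0.0700). For Ncam1, an adhesion gene, the log2 difference was -0.34 ± 0.08 (edgeR adjusted p = 0.0738). Both passed the threshold with DESeq2 and with voom, which each called 2 of the 13. Gfap also passed with edgeR without mouse 649 (adjusted p = 0.0360), without mouse 884 (0.0341) and without mice 649 and 887 (0.0320). The list shared by Schwann cells and satellite glia had no call among 10 genes with edgeR and 1 with DESeq2, 3 genes with an unadjusted p under 0.05 and a median of -0.11, with Cadm2 at -0.48 ± 0.13 (edgeR adjusted p = 0.0958) and Foxd3 at -0.50 ± 0.16 (edgeR adjusted p = 0.147).

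Markers of other cell types were read beside these results. Oligodendrocyte markers summed to 219 to 346 CPM in Nf2 and 228 to 344 CPM in DKO libraries. On average most of this sum was 1 gene, Aspa, at 204 ± 28.8 CPM in Nf2 and 174 ± 35.3 CPM in DKO mice (log2 fold change -0.25 ± 0.13). Edger and DESeq2 called none of the 11 of 12 tested, and 1 gene had an unadjusted edgeR p under 0.05. The median log2 fold change was 0.56, with 9 of the 11 above 0 and 2 below. The defining genes of that list were low, with Mog at 0.639 to 3.10 CPM in Nf2 and 0.607 to 5.18 CPM in DKO mice (log2 fold change 0.55 ± 0.53, edgeR adjusted p = 0.685), and with Opalin at no more than 1.30 CPM and at 0 in mouse 702. Mobp had 11.3 to 101 CPM in Nf2 and 24.1 to 137 CPM in DKO mice (log2 fold change 0.45 ± 0.44, edgeR adjusted p = 0.688). Cldn11, a claudin gene, had the smallest p of the list, with a log2 fold change of 0.60 ± 0.27 and an edgeR adjusted p of 0.313. The part of oligodendrocyte RNA in the Mbp and Mag values was not tested.

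None of 12 skeletal muscle genes passed with edgeR or DESeq2 and 10 had an unadjusted p under 0.05, with 12 of 12 lower in DKO DRG and a median log2 fold change of -2.18. Tnnt3 and Tnni2 had the smallest p, with -2.28 ± 0.76 and -2.08 ± 0.70 (edgeR adjusted p = 0.171 and 0.175). Of 12 macrophage genes 1 passed with edgeR, C1qb, a complement component, which was lower in DKO DRG (-0.71 ± 0.12, edgeR adjusted p = 0.0138). DESeq2 called 5 and voom 2 of the 12, 8 had an unadjusted edgeR p under 0.05, 10 were below 0 and the median was -0.35. Of 14 sensory neuron genes none passed with edgeR or DESeq2, and none at an unadjusted p under 0.05, with a median of -0.01 and the smallest p for Prdm12 (-0.19 ± 0.11, edgeR adjusted p = 0.457) and Scn9a (0.15 ± 0.09, edgeR adjusted p = 0.474). Of 8 fibroblast and perineurial genes none passed with edgeR or DESeq2 and 3 had an unadjusted p under 0.05, with a median of 0.06, Dcn at 0.25 ± 0.10 (edgeR adjusted p = 0.247) and Col3a1 at -0.55 ± 0.21 (edgeR adjusted p = 0.220).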

How the data were processed

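RNA of the DRG of 12 mice was extracted, selected for poly(A) and sequenced by a commercial provider for the authors. Per the submitters' processing notes, reads were trimmed with Trimmomatic 0.36, aligned to GRCm38 with STAR 2.5.2b and counted with featureCounts of Subread 1.5.2. Whether strand was used, how multi-mapping reads were handled and which annotation release was counted are not given in the sources used here. The authors deposited raw counts, with 1 whole number for each Ensembl gene in each mouse and no scaling. Of the 49315 genes, 174 had no symbol and 13672 had no read, and 48970 (99.3%) were found in GENCODE M21, which gave coordinates and merged exon lengths. The 66 pairs of libraries differed by more than sampling noise (chi-square per degree of freedom 10.6 to 90.6). No interval covers counting error alone, since mice differed by more than that.

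Counts were analysed with edgeR 4.0.16 in R 4.3.3 (filterByExpr by genotype, TMM scaling, quasi-likelihood F test, Benjamini-Hochberg adjustment over all genes tested, threshold 0.05, all 12 mice, no covariate), which was tested on simulated data. Fold changes are from this fit, per-mouse values are CPM of the library total, and correlations used log2(TMM-scaled CPM + 0.5). DESeq2 1.42.0 and voom of limma 3.58.1 were alternatives, as were other scaling factors and filters, sex as a covariate, each sex alone, other pseudocounts (1, and the study's 4) and each mouse left out. Fits of males without mouse 702 and of all mice without 649 and 887, which had high mitochondrial shares, were added after the data had been seen. Tables and figures were made with Python 3.11.15, pandas 2.3.3, numpy 2.4.6 and matplotlib 3.10.9.

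The 8 members, the lists and the comparisons were chosen with earlier results of these data known. The text names the members, Ptk2 and Nf2, up to 4 genes past the threshold of each list or otherwise the 2 with the smallest p, Sox10, Mog, Mobp and Opalin, and the 5 genes most like the members. A few genes that this rule names are not reported here. Xist and Ddx3y are named for the check of sex labels, and Aspa and Pvalb for their part in the summed level of a list. Lists share some genes, such as Sox10. Dlg2 had 2 rows in the table, and the row with more reads was used.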

Additional observations from a re-analysis of the deposited data

Results flagged for a closer look

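In 54 groups of 6 values (each gene's CPM, its reads per 1000 Mbp reads, each list's summed CPM and the mitochondrial share, by genotype), the highest or lowest mouse was checked for a wide gap to its nearest neighbour. Chance alone flags about 1 group in 20. No value of a myelin gene stood apart in this way. The Nf2 mouse 649 stood apart with 8216 CPM summed over the markers shared by Schwann cells and satellite glia, where the other 5 Nf2 mice had 6131 to 6609 CPM. The Nf2 mouse 1048 stood apart with 290.9 CPM summed over the macrophage markers, where the next lowest Nf2 mouse had 382 CPM. The DKO mouse 887 stood apart with 5.60% of its counts in mitochondrial genes, where the other DKO mice had at most 2.52%. With mice 649 and 887 left out together, Gjb1 and Cldn19 kept log2 fold changes of 0.37 each (edgeR adjusted p = 0.105 and 0.142).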

How the results depend on the processing

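The count of myelin genes past the threshold was 0 with edgeR, 2 with DESeq2 and 1 with limma voom, and it ran from 0 to 2 when each mouse was left out, the 2 arising without mouse 918. The cause was not tested. The count over all genes was 831 with DESeq2, 521 with voom, 57 in females, 2 in males, 9 in males without mouse 702 and 314 without mice 649 and 887, the last 2 settings being chosen after seeing the data. Leaving out each mouse gave 81 to 217 genes, with fewer than 172 by over 1.5 times without 918 (81), 917 (87), 885 (95), 1049 (98), 914 (109), 884 (111) or 702 (114). The median log2 fold change of the myelin genes was -0.18 in females, 0.18 in males and 0.23 in males without mouse 702, and from -0.04 to 0.07 when each mouse was left out. The male to female comparison called 10 genes without mouse 702 and 3 with it. The directions of Gjb1 and Cldn19 held under each of these settings. The other scaling factors, the other filters and sex as a covariate called no myelin gene and 157 to 182 genes overall. No paired analysis was possible because the genotypes share no mouse number. With 6 mice a genotype, the spread between mice set the precision, and the widest interval was that of Pmp2.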
